A study of Mus musculus with 12 samples.

Results

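The tripartite motif (TRIM) family is described here across peritoneal macrophages that lacked or carried CD36 and were given oxidized low-density lipoprotein (oxLDL) or medium alone. Members were the protein-coding genes of the count table whose symbol is Trim followed by a number and, where present, letters: 67 of 43346 genes. Of these, 45 had enough counts to be tested, beside 16281 genes tested in all. Another 12 had 1 to 57 counts summed over the 12 libraries, and 10 had no count in any library.

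The macrophages came from C57BL/6 mice, either lacking CD36 (CD36 KO) or wild type (WT), and were cultured in RPMI1640 with 10% serum. CD36 is a cell-surface scavenger receptor, known in macrophages for taking up oxLDL. The 4 groups were CD36 KO with oxLDL at 20 µg/ml for 8 h, CD36 KO in control medium, WT with oxLDL at the same dose and time, and WT in control medium, with 3 libraries each. Whether replicates were separate animals or cultures is not stated in the labels. P-values therefore cover the variation among these 3 libraries per group, and that variation may be technical. The labels are also silent on the purification of the cells, the deleted stretch of Cd36 and the origin of the WT mice.

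Most TRIM proteins are E3 ubiquitin ligases built from a RING finger, B-boxes and a coiled coil, with a C-terminal domain that chooses the target. Many act in innate immunity: some bind retroviral capsids in the cytosol, others attach ubiquitin chains to the sensors, adaptors and kinases that lead to NF-κB and interferon. In macrophages several members are known as interferon-stimulated genes, and others restrain Toll-like receptor signalling.

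The libraries held 35257762 to 65135955 counts. Cd36 itself was lower in every CD36 KO library: its mean was 199 ± 7.58 CPM in CD36 KO and 3100 ± 1048 CPM in WT under oxLDL, and 481 ± 28.3 CPM in CD36 KO and 5362 ± 106 CPM in WT in control medium (SD, n = 3 each). CPM here are counts relative to library size, scaled by TMM factors that adjust for the composition of each library. WT oxLDL replicate 1 stood apart from its group. Its log2 CPM correlated with those of its group at 0.952 to 0.953, where all other pairs within a group reached 0.988 to 0.995. Its long genes were also low relative to its short ones, by a log2 CPM difference of 1.48 between the longest and the shortest 25% of genes, against 2.31 to 2.95 in the other 11 libraries. All 8 macrophage markers were found in every library.

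Promoters of 5 members, chosen by their response to oxLDL, are printed for their sequence near the start. Each is the RefSeq window (GRCm38.p6) from 250 bases before to 50 after an annotated start, written 5′ to 3′ along the gene, all on the minus strand. Capitals mark matches to GAAANNGAAA or its reverse, TTTCNNTTTC, a pattern close to the element that interferon-activated factors bind. The first 4 are the members with a match that had the largest mean change with oxLDL over both genotypes, and the last is the member without one that had the largest.
Trim30a, chr7:104465144-104465443: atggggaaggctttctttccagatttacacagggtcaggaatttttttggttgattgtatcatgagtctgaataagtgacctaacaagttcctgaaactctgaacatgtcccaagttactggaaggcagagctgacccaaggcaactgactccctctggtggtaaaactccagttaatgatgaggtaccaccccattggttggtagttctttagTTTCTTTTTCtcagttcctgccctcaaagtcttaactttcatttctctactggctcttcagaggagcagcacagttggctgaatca
Trim30d, chr7:104507800-104508099: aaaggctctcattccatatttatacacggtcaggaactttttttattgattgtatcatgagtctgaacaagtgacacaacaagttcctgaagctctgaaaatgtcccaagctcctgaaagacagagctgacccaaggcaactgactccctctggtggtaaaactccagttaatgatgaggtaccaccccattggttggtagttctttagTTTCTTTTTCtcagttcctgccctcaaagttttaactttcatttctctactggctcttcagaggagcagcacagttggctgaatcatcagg
Trim21, chr7:102565433-102565732: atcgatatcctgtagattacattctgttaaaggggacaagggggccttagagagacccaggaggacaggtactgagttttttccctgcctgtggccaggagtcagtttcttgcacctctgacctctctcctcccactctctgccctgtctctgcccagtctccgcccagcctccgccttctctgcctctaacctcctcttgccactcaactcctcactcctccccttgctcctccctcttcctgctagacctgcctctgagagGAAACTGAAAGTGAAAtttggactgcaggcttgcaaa
Trim12a, chr7:104315446-104315745: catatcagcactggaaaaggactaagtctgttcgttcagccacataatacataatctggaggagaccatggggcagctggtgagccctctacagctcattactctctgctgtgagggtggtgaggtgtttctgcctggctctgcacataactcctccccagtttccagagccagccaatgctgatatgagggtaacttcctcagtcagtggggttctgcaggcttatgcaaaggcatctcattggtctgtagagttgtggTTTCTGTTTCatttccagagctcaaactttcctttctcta
Trim30c, chr7:104400729-104401028: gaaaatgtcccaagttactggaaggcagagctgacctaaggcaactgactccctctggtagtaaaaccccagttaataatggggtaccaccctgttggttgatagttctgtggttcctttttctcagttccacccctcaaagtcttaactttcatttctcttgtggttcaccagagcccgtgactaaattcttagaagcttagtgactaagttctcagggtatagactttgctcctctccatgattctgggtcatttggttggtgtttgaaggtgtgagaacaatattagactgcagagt

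RefSeq windows were found for 52 of the 67 members. The match began 36 bases before the printed start of Trim30a and 41 bases before that of Trim30d, whose windows were 90.5% identical over an end-to-end alignment with 10 gap positions. It lay 10 bases after the start of Trim12a, and 2 overlapping matches began 13 and 19 bases after that of Trim21. The second annotated start of Trim30a also had a match, 2 bases after it. Matches stood 29 bases before the start of Trim12c, 49 bases before that of Trim5 and 10 bases after that of Trim34a. In all, 7 of the 13 members that rose with oxLDL in both genotypes had a match (53.8%), beside 2 of the other 21 tested members with a window (9.52%, Trim2 and Trim26) and 3.99% of 27025 genes. Over all 32851 windows the share was 3.44%. The windows of Trim12c and Trim5 were 82.2% identical, those of Trim12a and Trim12c 72.6% and those of Trim12a and Trim5 67.1%. Members with such related windows, Trim30a and Trim30d among them, are not separate cases in these counts. Trim30b, Trim30c, Trim34b, Trim13, Trim25 and Trim56 rose without these letters in the window. The Trim30c window aligned with that of Trim30a over 199 bases, 175 of them identical, with 202 gap positions. The RefSeq start of Trim30b lies inside the bounds that GENCODE gives the gene rather than at their edge. Matches are descriptions of letters, and no binding was measured.

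Levels between genes are compared per length, as the authors' RPKM. Unlike the CPM here, these RPKM do not carry the TMM factors, so differences between groups are read from the CPM. The factors were 0.962 to 1.09 in CD36 KO with oxLDL and 0.729 to 0.864 in WT with oxLDL. Trim30a, which in mice restrains Toll-like receptor signalling by driving loss of the adaptors TAB2 and TAB3, had the highest mean RPKM over the 12 libraries, 50.5. Trim25, the ligase that activates the RNA sensor RIG-I, followed with 34.6 and Trim35, a ligase reported to act on IRF7, with 31.4. Trim30a averaged 82.2 ± 5.94 RPKM in CD36 KO with oxLDL, 16.8 ± 1.76 RPKM in CD36 KO control, 85.3 ± 37.7 RPKM in WT with oxLDL and 17.5 ± 0.973 RPKM in WT control (SD, n = 3 each). It therefore stood first of the 45 under oxLDL in both genotypes, but ranked 6 in CD36 KO and 5 in WT in control medium. In control medium the order was led by Trim28, a co-repressor of retroelements, with 34.3 ± 3.95 RPKM in CD36 KO, where Trim35 followed with 33.6 ± 1.45 RPKM, and by Trim35 with 31.4 ± 0.812 RPKM in WT, where Trim25 followed with 28.2 ± 0.833 RPKM. The CD36 KO pair differed by less than either SD. Trim30c moved most in this order: it ranked 5 under oxLDL and 37 in control medium in CD36 KO, and 7 under oxLDL and 36 in control medium in WT. At the other end, 8 members averaged under 1 RPKM in each medium in CD36 KO, 11 did in WT with oxLDL and 10 in WT control.

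**Figure D1:**
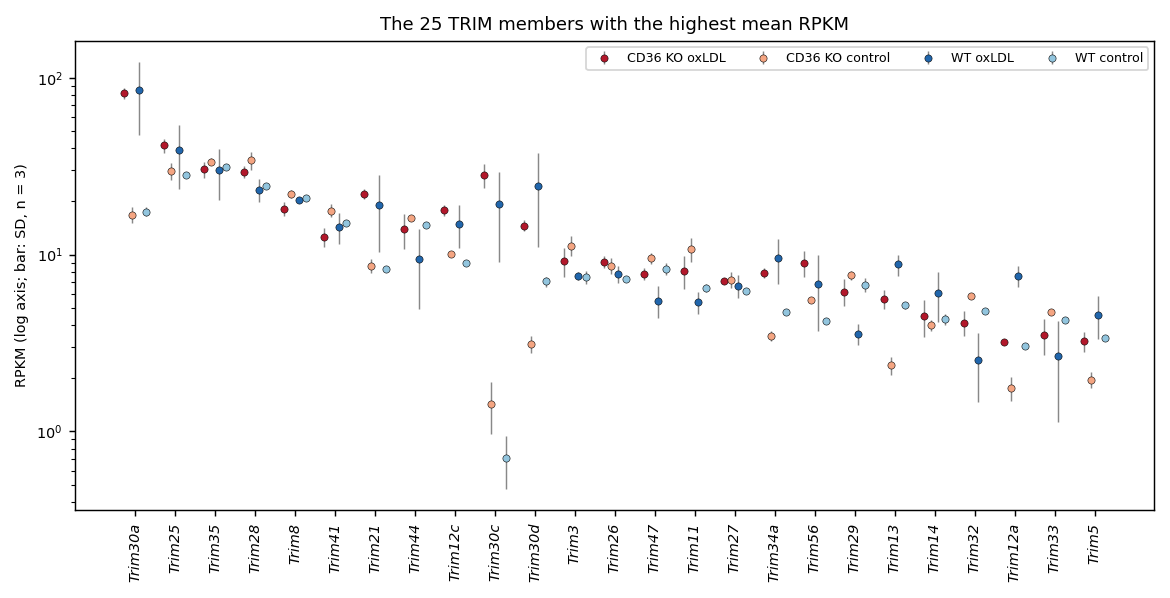
Mean RPKM (log axis) of the 25 TRIM members with the highest means; points are group means and bars SDs of 3 libraries. Trim30a, Trim30c and Trim30d stand well above their control points under oxLDL. The 4 group points lie close together for Trim35 (30.0 to 33.6 RPKM) and for Trim8 (18.2 to 22.0 RPKM). Trim28 runs from 23.3 to 34.3 RPKM, and Trim25 from 28.2 to 41.5 RPKM, higher with oxLDL in each genotype. RPKM do not carry the TMM factors, so group differences are read from the tests on counts. There Trim8 was called with oxLDL in WT (log2 fold change 0.33), and Trim28 was not called in any contrast.

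Under oxLDL, 13 members were higher and 4 lower in CD36 KO macrophages, and 18 were higher and 8 lower in WT macrophages (edgeR quasi-likelihood test, adjusted p under 0.05). Over all genes tested the corresponding shares were 11.6% higher and 15.7% lower in CD36 KO, and 18.1% higher and 18.6% lower in WT. As shares of the 45 members these counts were 28.9% higher and 8.89% lower in CD36 KO, and 40.0% higher and 17.8% lower in WT. The median log2 fold change of the members was -0.06 in CD36 KO and 0.32 in WT, beside -0.08 and -0.01 over all genes. The 2 contrasts share no library: 13 members were higher in both, Trim7, Trim16 and Trim68 were lower in both, and none was called in opposite directions. Another 10 were called in WT alone and Trim9 in CD36 KO alone. The same overlap was not counted over all genes, so whether it is particular to the members was not tested. When the genotypes' responses were tested against each other, 1 of the 45 members was called, Trim30b, as lower in CD36 KO, beside 0.436% lower and 0.233% higher over all genes; 6 members had an unadjusted p under 0.05. Without WT oxLDL replicate 1 the calls came to 27 in CD36 KO and 31 in WT. They included all of the 17 and 26 above. The share of all genes called in that fit is not given here, so these counts are not read against it.

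The 4 members with the largest mean change over both genotypes, Trim30c, Trim30b, Trim30a and Trim30d, lie in the retroviral restriction cluster of 10 genes on chromosome 7 (mm10, chr7:104218793-104507849, 289.1 kb, GENCODE M21), of which 3 lie on the forward and 7 on the reverse strand. Of all genes tested, 11.6% rose with oxLDL in CD36 KO and 18.1% in WT. All 10 cluster genes were tested, and 9 rose with oxLDL in each genotype. Their summed level was 536, 646 and 616 CPM in CD36 KO with oxLDL, against 156, 130 and 148 CPM in CD36 KO control. In WT it was 522, 951 and 1005 CPM with oxLDL, against 179, 195 and 184 CPM in control medium. Every oxLDL library lay above every control library, and WT oxLDL replicate 1 was the lowest of its group. The other 57 members together held 1180 ± 66.1 CPM in CD36 KO with oxLDL and 1075 ± 32.0 CPM in CD36 KO control, and 1284 ± 173 CPM in WT with oxLDL and 1022 ± 15.5 CPM in WT control (SD, n = 3 each).

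**Figure D2:**
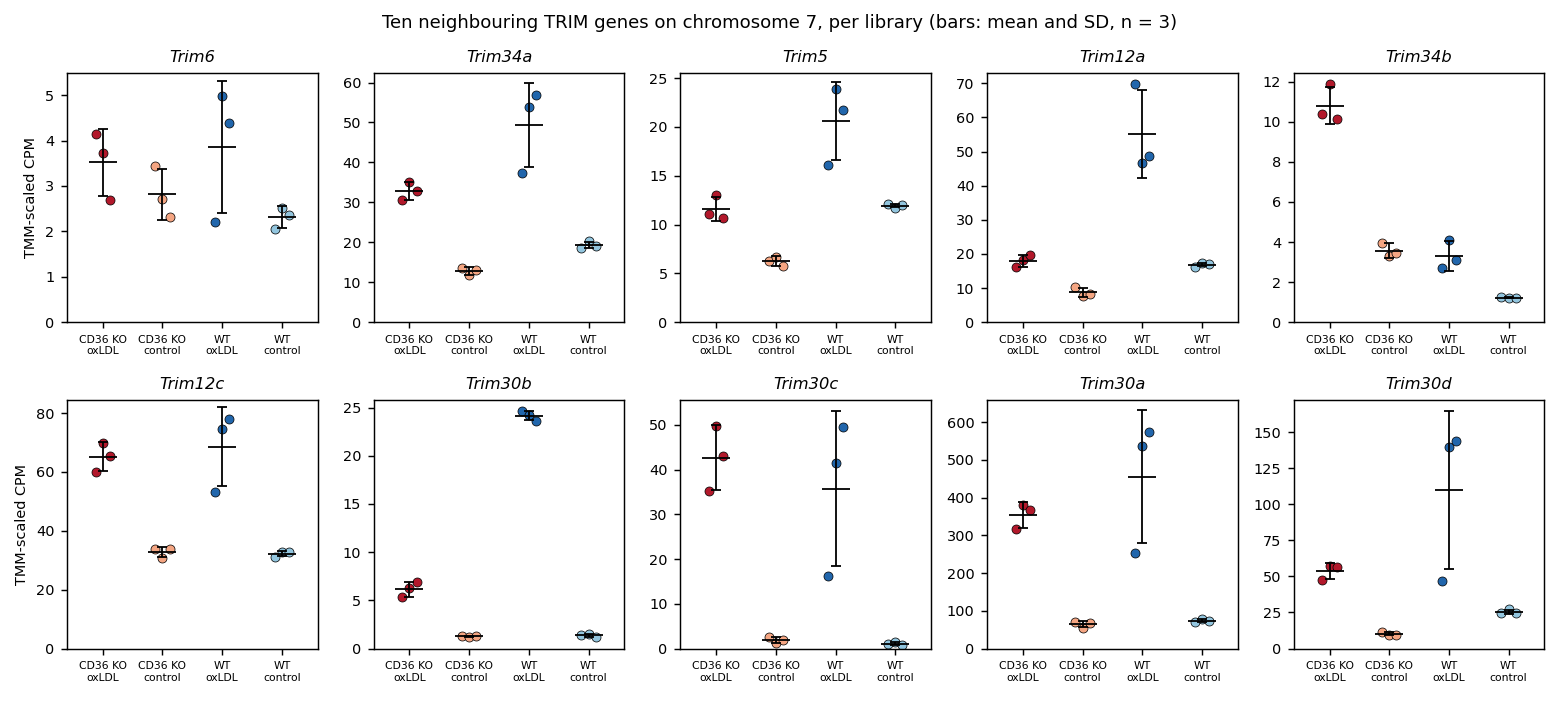
TMM-scaled CPM of the 10 cluster members in each of the 12 libraries, in chromosome order, with group means and SDs (n = 3). In 9 of 10 panels all oxLDL points lie above the control points of the same genotype, and Trim6 is the exception. The share of all genes that separate in this way was not counted. Trim30b shows WT oxLDL libraries at 23.6 to 24.6 CPM above CD36 KO oxLDL libraries at 5.30 to 6.86 CPM.

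Trim30c, a near relative of Trim30a, changed most. It had 35.2, 49.7 and 43.0 CPM in CD36 KO with oxLDL, against 2.54, 1.27 and 1.93 CPM in CD36 KO control. WT libraries held 16.3, 41.4 and 49.5 CPM with oxLDL, against 1.02, 1.39 and 0.715 CPM in control medium. The oxLDL and control libraries did not overlap in either genotype, and the lowest oxLDL value was that of WT replicate 1. The log2 fold change was 4.48 ± 0.43 in CD36 KO (adjusted p = 1.34e-05) and 5.10 ± 0.45 in WT (adjusted p = 4.63e-06; edgeR, ± standard error).

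Trim30b (ENSMUSG00000052749, chr7:104355382-104369884) was the only member whose response to oxLDL differed between the genotypes in the test of that difference. It had 5.30, 6.32 and 6.86 CPM in CD36 KO with oxLDL, against 1.32, 1.22 and 1.33 CPM in CD36 KO control. Its level was 24.6, 24.2 and 23.6 CPM in WT with oxLDL, against 1.44, 1.51 and 1.21 CPM in WT control. The control libraries of the genotypes overlapped, whereas the highest CD36 KO oxLDL library lay well below the lowest WT one. The log2 fold change with oxLDL was 2.25 ± 0.15 in CD36 KO (adjusted p = 5.29e-07) and 4.12 ± 0.15 in WT (adjusted p = 6.58e-09). The response in CD36 KO minus that in WT was -1.87 ± 0.20 on the log2 scale (adjusted p = 0.00212, edgeR), and it stayed at -1.87 without WT oxLDL replicate 1. Of the 50-base stretches of Trim30b, 1.48% occur in the annotated transcripts of other genes.

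Trim30a and Trim30d rose together. Trim30a had 316, 381 and 368 CPM in CD36 KO with oxLDL, against 69.6, 55.6 and 68.1 CPM in CD36 KO control. The WT values were 253, 537 and 575 CPM with oxLDL and 70.7, 79.1 and 73.2 CPM in control medium. No oxLDL library overlapped the controls, and WT oxLDL replicate 1 was again the lowest of its group. The log2 fold change was 2.46 ± 0.26 in CD36 KO (adjusted p = 2.80e-05) and 2.62 ± 0.26 in WT (adjusted p = 1.28e-05). Trim30d had 47.2, 57.4 and 56.3 CPM in CD36 KO with oxLDL, against 11.3, 9.50 and 9.56 CPM in CD36 KO control. In WT it had 46.7, 140 and 144 CPM with oxLDL, against 24.4, 27.3 and 24.6 CPM in control medium. It was 2.40 ± 0.34 higher with oxLDL in CD36 KO (log2, adjusted p = 0.000255) and 2.11 ± 0.33 higher in WT (adjusted p = 0.000437).

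Trim12a, Trim12c and Trim5 are the rodent relatives of primate TRIM5, whose alpha isoform binds incoming retroviral capsids. Trim12a had 16.3, 18.1 and 19.7 CPM in CD36 KO with oxLDL, against 10.3, 7.67 and 8.32 CPM in CD36 KO control. WT libraries held 69.8, 46.6 and 48.8 CPM with oxLDL, against 16.3, 17.4 and 16.9 CPM in control medium. The oxLDL libraries lay above the controls in each genotype, and CD36 KO libraries with oxLDL sat near the WT control level. Here WT oxLDL replicate 1 was the highest of its group rather than the lowest. Its log2 fold change was 1.04 ± 0.18 in CD36 KO (adjusted p = 0.000921) and 1.70 ± 0.18 in WT (adjusted p = 1.64e-05). Trim12c had 60.0, 69.9 and 65.5 CPM in CD36 KO with oxLDL and 33.9, 30.7 and 33.7 CPM in CD36 KO control, and 53.1, 74.5 and 78.1 CPM in WT with oxLDL and 31.3, 32.8 and 32.8 CPM in WT control. It rose by 0.99 ± 0.15 in CD36 KO (adjusted p = 0.000374) and by 1.09 ± 0.15 in WT (adjusted p = 0.000137) on the log2 scale. Trim5 had 11.1, 13.0 and 10.7 CPM in CD36 KO with oxLDL and 6.32, 6.71 and 5.74 CPM in CD36 KO control, and 16.1, 23.9 and 21.7 CPM in WT with oxLDL and 12.1, 11.7 and 11.96 CPM in WT control. Among the 9 cluster members that rose it rose least, by 0.89 ± 0.16 in CD36 KO and 0.79 ± 0.15 in WT. Of the 50-base stretches of Trim12c, 33.7% occur in other genes and 24.2% in Trim5, so reads of the 2 may be exchanged; their summed level was 76.7 ± 5.90 CPM in CD36 KO with oxLDL and 39.0 ± 1.42 CPM in CD36 KO control, and 89.1 ± 17.2 CPM in WT with oxLDL and 44.2 ± 0.758 CPM in WT control (SD, n = 3 each).

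Trim34a and Trim34b are relatives of human TRIM34, which acts with TRIM5 on viral capsids. Trim34a had 30.5, 34.995 and 32.9 CPM in CD36 KO with oxLDL, against 13.5, 11.8 and 13.1 CPM in CD36 KO control. Its level was 37.4, 53.9 and 56.9 CPM in WT with oxLDL, against 18.6, 20.2 and 19.2 CPM in WT control. Trim34b differed between the genotypes in the other direction. It had 10.4, 11.9 and 10.1 CPM in CD36 KO with oxLDL, against 3.97, 3.29 and 3.46 CPM in CD36 KO control. The WT values were 2.69, 4.11 and 3.12 CPM with oxLDL and 1.27, 1.20 and 1.21 CPM in control medium. Both rose with oxLDL in each genotype without overlap. The log2 fold change of Trim34a was 1.36 ± 0.16 in CD36 KO and 1.35 ± 0.16 in WT (adjusted p = 5.73e-05 and 4.10e-05), and that of Trim34b 1.60 ± 0.17 in CD36 KO and 1.43 ± 0.18 in WT (adjusted p = 2.40e-05 and 6.80e-05). These genes share sequence: 59.7% of the 50-base stretches of Trim34a occur in other genes, and 56.8% of those of Trim34b occur in Trim34a. Together they held 40.9, 46.9 and 43.0 CPM in CD36 KO with oxLDL, against 40.1, 58.1 and 60.0 CPM in WT with oxLDL. In control medium they held 17.5, 15.04 and 16.6 CPM in CD36 KO, against 19.9, 21.4 and 20.4 CPM in WT.

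Trim6, at the end of the cluster, was the member that did not pass the test in either genotype. It had 4.14, 3.73 and 2.70 CPM in CD36 KO with oxLDL against 3.43, 2.71 and 2.33 CPM in CD36 KO control, and 2.22, 4.98 and 4.39 CPM in WT with oxLDL against 2.06, 2.52 and 2.37 CPM in WT control. The groups overlapped in each genotype. Its log2 fold change was 0.32 ± 0.28 in CD36 KO (adjusted p = 0.457) and 0.75 ± 0.28 in WT (adjusted p = 0.0589). Without WT oxLDL replicate 1 the WT value was 1.04 (adjusted p = 0.000971).

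**Figure D3:**
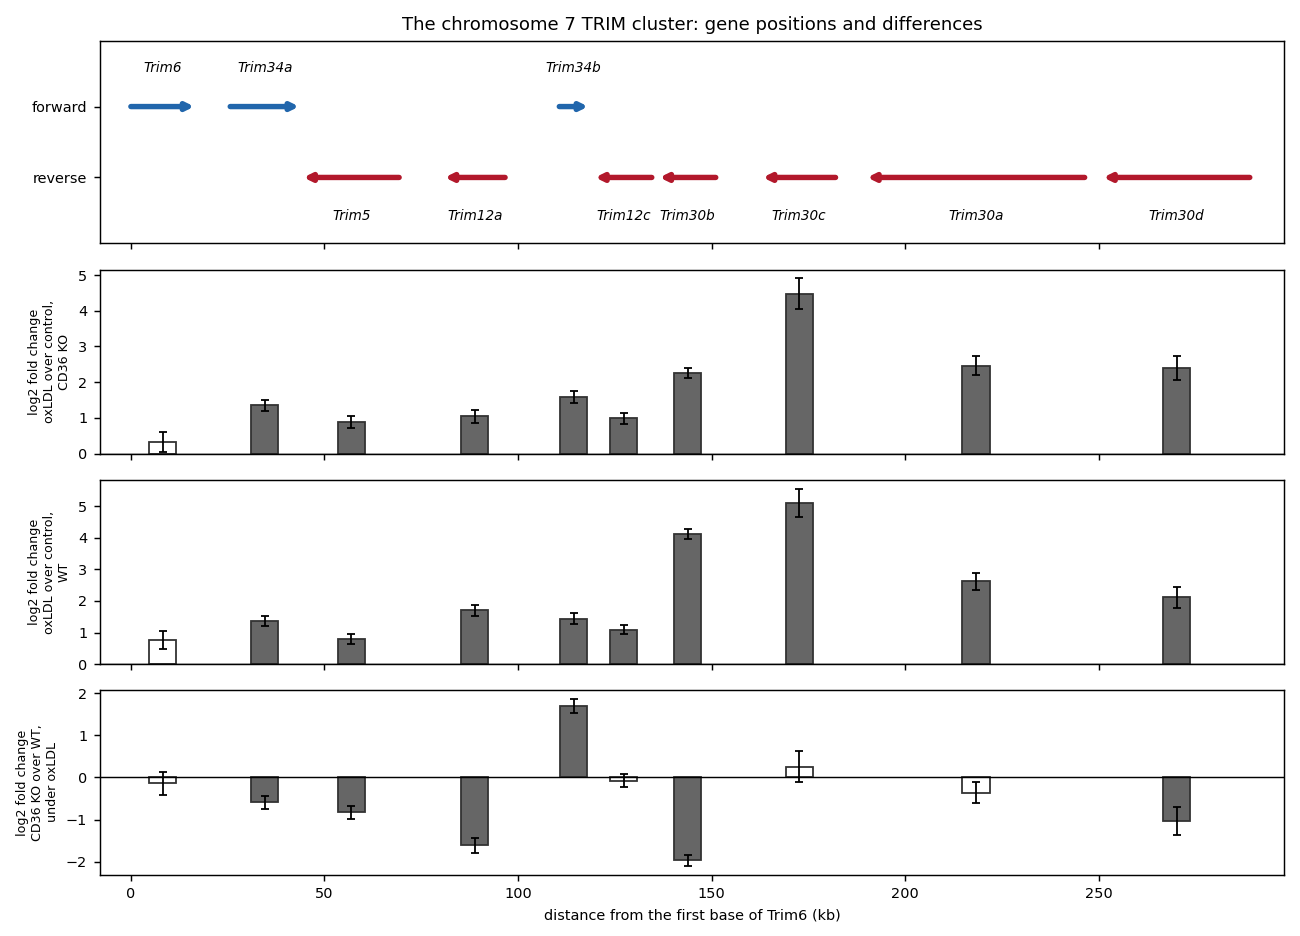
Positions and strands of the 10 cluster genes by distance from the first base of Trim6 (kb, top), above their log2 fold changes with oxLDL in CD36 KO and in WT and their log2 fold changes of CD36 KO over WT under oxLDL (bars with standard errors; filled bars passed adjusted p under 0.05). The changes with oxLDL are largest for Trim30c, and in the genotype comparison Trim34b is the 1 gene called higher in CD36 KO, beside 5 called lower.

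Among the innate signalling regulators, 19 of 23 were tested. Of these, 4 rose and 2 fell with oxLDL in CD36 KO, and 8 rose and 3 fell in WT. The shares of all genes tested were 11.6% higher and 15.7% lower in CD36 KO, and 18.1% higher and 18.6% lower in WT. In each genotype the regulators' share lay above that of all genes for rises and below it for falls. Their median log2 fold change was -0.10 in CD36 KO and 0.28 in WT. Trim21, the cytosolic Fc receptor that recognises antibody-coated virus, rose most. It had 52.3, 61.1 and 67.1 CPM in CD36 KO with oxLDL, against 22.3, 18.4 and 21.7 CPM in CD36 KO control. In WT it had 35.007, 71.9 and 86.4 CPM with oxLDL, against 20.9, 22.3 and 23.0 CPM in control medium. The lowest oxLDL library was again WT replicate 1, still above all controls. The log2 fold change was 1.53 ± 0.26 in CD36 KO (adjusted p = 0.00113) and 1.55 ± 0.26 in WT (adjusted p = 0.000813).

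Trim13, a ligase anchored in the endoplasmic reticulum that takes part in protein degradation there, had 10.0, 8.40 and 9.58 CPM in CD36 KO with oxLDL, against 3.01, 3.64 and 3.79 CPM in CD36 KO control. WT libraries held 17.8, 17.2 and 20.4 CPM with oxLDL, against 8.68, 8.22 and 8.33 CPM in control medium. The groups did not overlap, except that the CD36 KO oxLDL and WT control libraries lay at like levels. It rose by 1.42 ± 0.14 in CD36 KO (log2, adjusted p = 1.26e-05) and by 1.13 ± 0.13 in WT (adjusted p = 4.35e-05). Trim25, which had the highest mean RPKM of the regulators, had 224, 250 and 224 CPM in CD36 KO with oxLDL and 165, 133 and 147 CPM in CD36 KO control, and 167, 322 and 325 CPM in WT with oxLDL and 150, 161 and 156 CPM in WT control. Trim35 had 120, 127 and 113 CPM in CD36 KO with oxLDL and 121, 116 and 115 CPM in CD36 KO control, and 106, 169 and 168 CPM in WT with oxLDL and 122, 123 and 120 CPM in WT control. Every Trim25 library with oxLDL stood above the controls of its genotype, WT replicate 1 by little, whereas the Trim35 groups overlapped in each genotype. Trim56, which promotes signalling from cytosolic DNA, rose by 0.87 ± 0.25 in CD36 KO and by 1.04 ± 0.25 in WT, and Trim25 by 0.65 ± 0.21 in CD36 KO and 0.80 ± 0.21 in WT (adjusted p = 0.0418 and 0.0124 for Trim25). The CD36 KO calls were lost in 9 of the 12 fits without 1 library for Trim25 (adjusted p up to 0.139) and in 5 for Trim56 (up to 0.0818). Trim14, an adaptor of the mitochondrial MAVS complex, rose in WT by 0.85 ± 0.20 (adjusted p = 0.00557) and measured 0.33 ± 0.20 in CD36 KO (adjusted p = 0.249). Trim26, Trim27 and Trim8 also passed the test in WT alone, with log2 fold changes of 0.45, 0.48 and 0.33, beside 0.25, 0.15 and -0.10 in CD36 KO. The WT call was lost in 8 of the 12 fits without 1 library for Trim27 (adjusted p up to 0.109) and in 3 for Trim8 (up to 0.0901), and Trim27 was at 0.27 without WT oxLDL replicate 1. Trim14 overlaps Nans on the opposite strand over 9852 bases, and the strand used in counting is not given, so its reads and those of Nans cannot be told apart there.

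Trim7, Trim59 and Trim68 were the regulators that fell in at least 1 genotype. Trim7, which binds glycogenin, had 1.71, 1.57 and 1.25 CPM in CD36 KO with oxLDL, against 2.89, 2.52 and 2.49 CPM in CD36 KO control. Its level was 1.07, 0.818 and 0.414 CPM in WT with oxLDL, against 1.59, 1.67 and 1.75 CPM in WT control. Its log2 fold change was -0.80 ± 0.25 in CD36 KO (adjusted p = 0.0366) and -1.12 ± 0.27 in WT (adjusted p = 0.00744). Both calls were lost when a trend with gene length was removed (-0.60 in CD36 KO, adjusted p = 0.182, and -0.76 in WT, adjusted p = 0.101), and the CD36 KO call in 9 of the 12 fits without 1 library (adjusted p up to 0.131). Trim68 fell by 0.55 ± 0.17 in CD36 KO and by 0.63 ± 0.17 in WT; these calls were lost in 5 and 1 of the 12 fits without 1 library. Trim59, reported to restrain NF-κB and interferon signalling, had 9.42, 8.51 and 8.53 CPM in CD36 KO with oxLDL, against 9.16, 15.1 and 10.3 CPM in CD36 KO control. The WT values were 1.64, 2.92 and 3.43 CPM with oxLDL and 6.66, 5.97 and 4.63 CPM in control medium. The WT groups did not overlap and the CD36 KO groups did. Its log2 fold change was -0.38 ± 0.25 in CD36 KO (adjusted p = 0.308) and -1.10 ± 0.27 in WT (adjusted p = 0.00727), and the responses of the genotypes did not differ past the threshold (adjusted p = 0.56).

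In the other 4 role lists, 16 members were tested, and most were not called. With oxLDL 0 of them rose and 2 fell in CD36 KO, and 1 rose and 5 fell in WT, beside the shares of all genes given above. Trim16, which recognises damaged lysosomes together with galectin-3, fell most of all members. It had 3.23, 2.89 and 2.35 CPM in CD36 KO with oxLDL, against 8.97, 8.49 and 8.77 CPM in CD36 KO control. In WT it had 2.79, 2.51 and 2.51 CPM with oxLDL, against 9.97, 9.77 and 9.61 CPM in control medium. The oxLDL libraries of the 2 genotypes lay together, far below the controls. The log2 fold change was -1.63 ± 0.14 in CD36 KO (adjusted p = 4.59e-06) and -1.91 ± 0.14 in WT (adjusted p = 9.31e-07). Of the 5 tested members of its group (autophagy, membrane repair and other), 1 fell in CD36 KO and 3 in WT. The other 2 in WT were Trim37, a peroxisomal and centrosomal ligase, with -1.01 ± 0.19, and Trim29, an inhibitor of the kinase scaffold NEMO in alveolar macrophages, with -0.54 ± 0.17. The Trim29 call was lost in 4 of the 12 fits without 1 library (adjusted p up to 0.0889).

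Of the 4 nuclear co-regulators tested, Trim24, a co-regulator of retinoid receptors, was the only one called. It had 12.4, 11.3 and 9.73 CPM in CD36 KO with oxLDL, against 15.8, 17.985 and 16.5 CPM in CD36 KO control. WT libraries held 3.52, 6.97 and 7.46 CPM with oxLDL, against 13.1, 13.5 and 12.4 CPM in control medium. All oxLDL libraries were below the controls, but the test was passed in WT (-1.11 ± 0.23, adjusted p = 0.00267) and not in CD36 KO (-0.59 ± 0.22, adjusted p = 0.0726). Trim28 measured -0.04 ± 0.16 in CD36 KO and 0.32 ± 0.16 in WT, neither past the test, and it overlaps Zbtb45 on the opposite strand. Of the 4 tested members with NHL repeats or a filamin domain, Trim2, a neuronal ligase in other settings, was called in WT alone (-1.10 ± 0.29, adjusted p = 0.012, beside -0.74 ± 0.28 in CD36 KO, adjusted p = 0.0741). Of the 3 microtubule-associated members tested, Trim46 passed in WT (0.772, 1.03 and 0.774 CPM with oxLDL, against 0.552, 0.486 and 0.394 CPM in control medium; the call was lost in 7 of the 12 fits without 1 library, adjusted p up to 0.134) and Trim9 in CD36 KO. Trim9 had 1.30, 1.43 and 1.35 CPM in CD36 KO with oxLDL, against 2.18, 5.04 and 3.49 CPM in CD36 KO control; its log2 fold change of -1.39 ± 0.36 (adjusted p = 0.0134) was -1.06 without CD36 KO control replicate 2 (adjusted p = 0.0642).

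**Figure D4:**
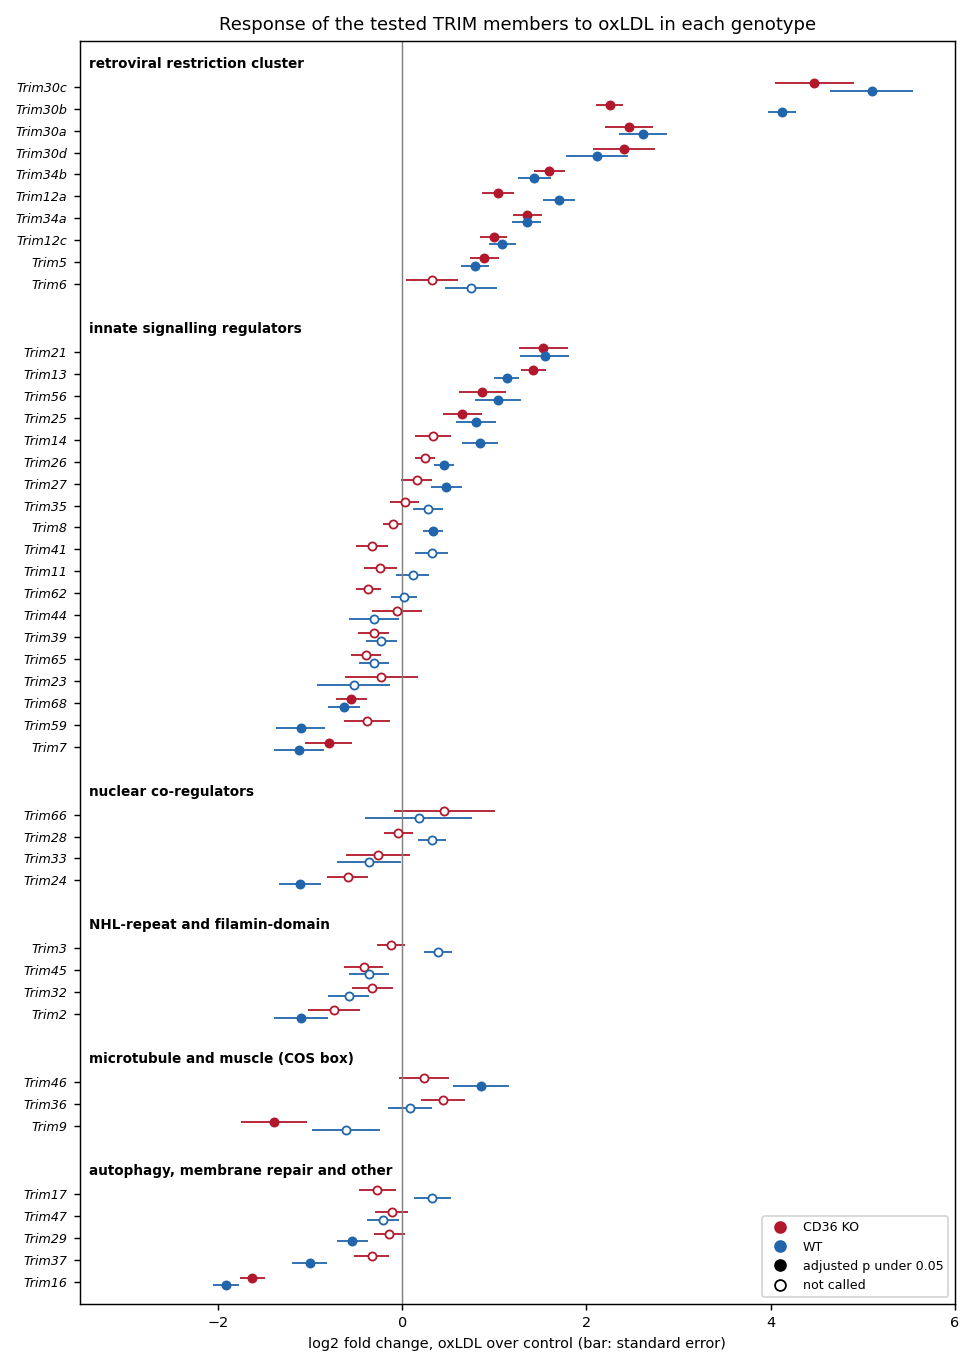
Log2 fold change with oxLDL (points, bars are standard errors) of the 45 tested TRIM members in CD36 KO (red) and WT (blue), by role; filled points passed adjusted p under 0.05. The cluster members lie to the right of 0, from 0.32 for Trim6 in CD36 KO to 5.10 for Trim30c in WT, and Trim16 lies farthest to the left, at -1.91 in WT.

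Mefv, Pml, Mid1 and Mid2 belong to the family under other names. Mefv, which encodes pyrin, rose by 4.03 ± 0.14 in CD36 KO and by 4.78 ± 0.14 in WT with oxLDL (log2, adjusted p = 9.18e-09 and 2.59e-09), and Pml, the scaffold of nuclear bodies, by 0.79 ± 0.13 in CD36 KO and 1.57 ± 0.14 in WT. Mid2 fell by 1.01 ± 0.27 in CD36 KO and by 1.36 ± 0.29 in WT, and Mid1 passed only in WT (0.61 ± 0.21, adjusted p = 0.0358, beside -0.19 ± 0.21 in CD36 KO). Of 27 signalling proteins that TRIM ligases act on or work beside, 17 rose with oxLDL in CD36 KO and 18 in WT. These were 63% and 66.7%, beside 11.6% and 18.1% of all genes tested, and 0 fell in either genotype. The median log2 fold change of the 27 was 0.86 in CD36 KO and 0.89 in WT. Usp18, a brake on interferon signalling, rose by 4.33 ± 0.28 in CD36 KO and 4.89 ± 0.28 in WT, and the interferon regulator Irf7 by 3.61 ± 0.33 in CD36 KO and 4.68 ± 0.34 in WT. The RNA sensor Ifih1 (MDA5) rose by 2.79 ± 0.24 in CD36 KO and 3.05 ± 0.24 in WT, and Ddx58 (RIG-I) by 2.58 ± 0.20 in CD36 KO and 2.97 ± 0.21 in WT. The targets of Trim30a, Tab2 and Tab3, named here after their values were seen, did not pass the test in either genotype, with log2 fold changes of 0.47 and -0.06 in CD36 KO and 0.52 and -0.25 in WT.

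In control medium, 3 members were higher and 5 lower in CD36 KO than in WT macrophages, where 8.78% of all genes tested were higher and 2.42% lower. Trim34b, Trim46 and Trim59 were higher, and Trim5, Trim12a, Trim13, Trim30d and Trim34a were lower. Under oxLDL, 5 were higher and 10 lower in CD36 KO, where 11.7% of all genes tested were higher and 9.86% lower. Trim2, Trim7, Trim24, Trim34b and Trim59 were higher, and Trim5, Trim8, Trim12a, Trim13, Trim14, Trim17, Trim30b, Trim30d, Trim34a and Trim41 were lower. The median log2 fold change of the members was 0.05 in control medium and -0.02 under oxLDL, beside 0.01 and -0.03 over all genes. Without WT oxLDL replicate 1 the calls came to 13 higher and 6 lower in control medium, where the balance turned, and to 9 higher and 19 lower under oxLDL; they included all of the 8 and 15 above. With only the control libraries in the fit they came to 13 higher and 8 lower in control medium. Shares of all genes called in these fits are not given here.

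Of the cluster, 1 member was higher and 4 lower in CD36 KO in control medium, and 1 higher and 5 lower under oxLDL. The shares of all genes in these contrasts are those given above. Trim34b was 1.54 ± 0.18 higher in control medium (log2, adjusted p = 0.000461) and 1.70 ± 0.17 higher under oxLDL (adjusted p = 0.000114). Trim34a was lower by contrast, at -0.60 ± 0.16 in control medium (adjusted p = 0.0304) and -0.59 ± 0.15 under oxLDL (adjusted p = 0.0188). Trim5 measured -0.93 ± 0.16 in control medium (adjusted p = 0.00329) and -0.83 ± 0.15 under oxLDL (adjusted p = 0.00348), and the CD36 KO and WT libraries did not overlap in either medium. Trim12a measured -0.95 ± 0.17 in control medium (adjusted p = 0.00518) and -1.61 ± 0.18 under oxLDL (adjusted p = 0.000202). Trim30d measured -1.33 ± 0.33 in control medium (adjusted p = 0.023) and -1.04 ± 0.32 under oxLDL (adjusted p = 0.0401); under oxLDL the groups overlapped through WT replicate 1, and without that library the value was -1.42 (adjusted p = 1.60e-06). Without any other 1 of the 12 libraries this oxLDL call was lost (adjusted p up to 0.146), as it was with upper-quartile factors (-0.90, adjusted p = 0.0565) and limma-voom (-0.88, adjusted p = 0.0876). The oxLDL call of Trim34a was lost without CD36 KO oxLDL replicate 1 (adjusted p = 0.0852) or WT oxLDL replicate 3 (adjusted p = 0.0591). The control-medium calls of Trim30d and Trim34a were lost when any 1 of the 6 control libraries was left out. Trim30b, Trim30a, Trim30c, Trim12c and Trim6 did not pass the test in control medium. Trim30b alone of these 5 was called under oxLDL, at -1.97 ± 0.14 (adjusted p = 1.03e-05), and Trim30a measured -0.36 ± 0.25 (adjusted p = 0.323), or -0.66 (adjusted p = 0.000562) without WT oxLDL replicate 1.

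Of the regulators, Trim13 was lower in CD36 KO in each medium, at -1.27 ± 0.14 in control medium (adjusted p = 0.000309) and -0.98 ± 0.13 under oxLDL (adjusted p = 0.000669), on the log2 scale. Trim13 overlaps Dleu2 on the opposite strand over 3108 bases. Trim59 was higher, by 0.999 ± 0.26 in control medium (adjusted p = 0.0282) and 1.72 ± 0.27 under oxLDL (adjusted p = 0.00144). Its control-medium call was lost in 4 of the 6 fits that left out a control library. Trim8, which modifies the kinase TAK1, had 55.8, 61.0 and 54.6 CPM in CD36 KO with oxLDL and 89.1, 78.9 and 77.5 CPM in WT with oxLDL, a log2 difference of -0.52 ± 0.11 (adjusted p = 0.00532). Trim14 had 17.9, 23.2 and 15.4 CPM in CD36 KO with oxLDL and 23.3, 37.7 and 35.7 CPM in WT with oxLDL, a difference of -0.77 ± 0.20 (adjusted p = 0.0161). For both genes the libraries of the genotypes did not overlap under oxLDL, and in control medium the test was not passed (adjusted p = 0.752 for Trim8 and 0.525 for Trim14). The Trim14 call under oxLDL was lost without CD36 KO oxLDL replicate 1 (adjusted p = 0.0691) or replicate 3 (adjusted p = 0.0526). Trim46 was called only in control medium, with 1.503, 1.103 and 0.814 CPM in CD36 KO and the WT control values given above (log2 difference 1.25 ± 0.29, adjusted p = 0.0182), and the call was lost in 4 of the 6 fits without a control library.

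Of the 5 members that fell with oxLDL in WT alone, Trim2, Trim24 and Trim59 were higher in CD36 KO under oxLDL. Trim29 and Trim37 did not pass that test (adjusted p = 0.0908 and 0.0765, edgeR). Both contrasts use the WT oxLDL libraries, so higher CD36 KO values are partly built into this choice of members. Of all genes tested, 11.7% were higher in CD36 KO under oxLDL. Trim24 measured 0.89 ± 0.23 (adjusted p = 0.0174) and Trim2 1.14 ± 0.29 (adjusted p = 0.0172), each without overlap of the libraries. Trim2 had 6.38, 6.13 and 5.02 CPM in CD36 KO with oxLDL, against 1.31, 3.43 and 3.09 CPM in WT with oxLDL. For neither did the genotypes' responses differ past the threshold (adjusted p = 0.665 for Trim24 and 0.83 for Trim2). Trim17 had 7.56, 7.53 and 9.53 CPM in CD36 KO with oxLDL, against 19.7, 11.5 and 11.9 CPM in WT with oxLDL. It shares 17.7% of its 50-base stretches with Hist3h2a and measured -0.81 ± 0.20 (adjusted p = 0.0164), with WT oxLDL replicate 1 the highest library; without that library the value was -0.53 (adjusted p = 0.00564). The calls of Trim2, Trim17, Trim24 and Trim7 under oxLDL were each lost without CD36 KO oxLDL replicate 1 (adjusted p = 0.0665 for Trim2, 0.0725 for Trim17, 0.0746 for Trim24 and 0.102 for Trim7) and without replicate 2 (adjusted p = 0.0563, 0.0677, 0.0546 and 0.0748 in the same order). The oxLDL call of Trim41 was lost in 9 of the 12 fits without 1 library, and its value of -0.55 was -0.30 without WT oxLDL replicate 1. Of the 27 signalling proteins, 0 were higher and 1 lower in CD36 KO in control medium (3.7% lower, beside 2.42% of all genes). Under oxLDL 0 were higher and 9 lower (33.3%, beside 9.86% of all genes). Among these 9 were Irf7 (-1.82 ± 0.30), Usp18 (-1.55 ± 0.24), the RNA sensor relative Dhx58 (-1.06 ± 0.17) and the adaptor Myd88 (-0.79 ± 0.12). Of the family members with other names, Mefv, Mid1 and Pml were lower under oxLDL, at -1.39 ± 0.12, -1.47 ± 0.21 and -0.78 ± 0.13, and Mid2 was higher, at 1.16 ± 0.29.

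**Figure D5:**
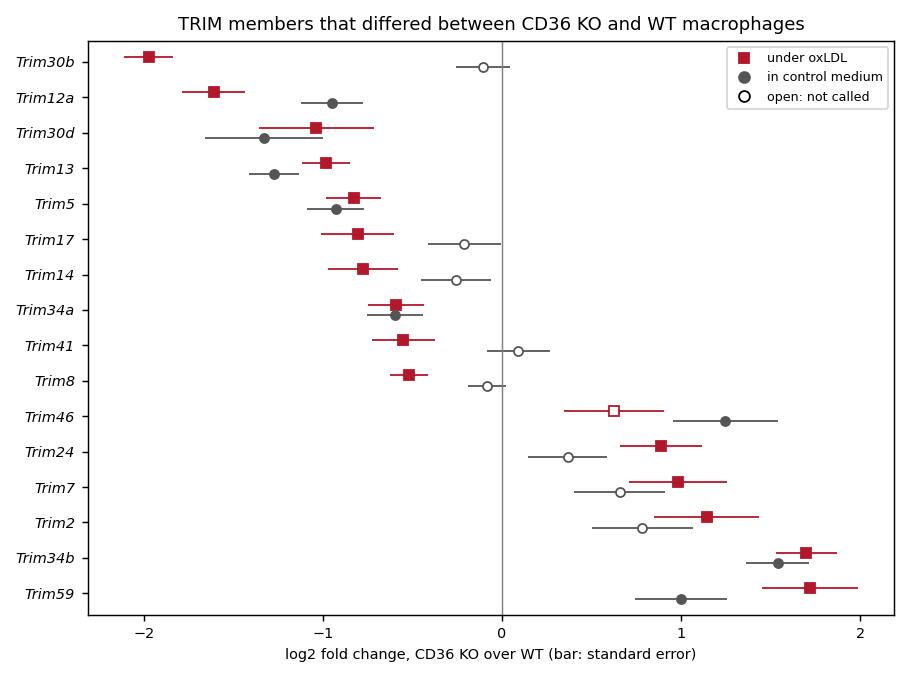
Log2 fold change of CD36 KO over WT (bars are standard errors) under oxLDL (squares) and in control medium (circles) for the 16 TRIM members called in at least 1 medium; open symbols did not pass adjusted p under 0.05. Trim30b is at -1.97 under oxLDL and -0.11 in control medium, while Trim12a, Trim13, Trim5, Trim30d and Trim34a lie below 0, and Trim34b and Trim59 above 0, in each medium.

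Markers of other cells also differed between the genotypes. Of all genes tested, 11.7% were higher in CD36 KO under oxLDL and 8.78% in control medium. The shares lower in CD36 KO were 9.86% under oxLDL and 2.42% in control medium. The 10 B cell markers summed to 176 to 207 CPM in CD36 KO and 52.9 to 67.9 CPM in WT under oxLDL, and to 192 to 355 CPM in CD36 KO and 95.4 to 116 CPM in WT in control medium; 9 were higher in CD36 KO under oxLDL and 8 in control medium. The 10 mesothelial or fibroblast markers summed to 1836 to 2297 CPM in CD36 KO and 649 to 951 CPM in WT under oxLDL, and to 1928 to 3342 CPM in CD36 KO and 766 to 1289 CPM in WT in control medium; 5 were higher in CD36 KO under oxLDL and 3 in control medium. The 8 neutrophil markers summed to 147 to 159 CPM in CD36 KO with oxLDL and 49.4 to 65.9 CPM in CD36 KO control, and to 266 to 333 CPM in WT with oxLDL and 86.1 to 93.9 CPM in WT control; 6 of them averaged under 1 CPM in each group, among them Ly6g. The 8 macrophage markers summed to 15623 to 19809 CPM in CD36 KO with oxLDL and 15267 to 16945 CPM in CD36 KO control. In WT they summed to 19857 to 34788 CPM with oxLDL and 15656 to 16029 CPM in control medium. Lyz2 alone ran from 11165.5 to 26319.2 CPM over the 12 libraries. Of the 8, 1 was higher and 3 lower in CD36 KO under oxLDL, and 1 higher and 2 lower in control medium. The 6 T cell markers summed to at most 22.7 CPM, the 6 mast cell markers to at most 19.0, the 5 dendritic cell markers to at most 9.83 and the 5 eosinophil markers to at most 19.2, with Epx at 0 in every library. Their part in the TRIM differences was not tested. In such bulk samples, fewer cells of a type and less RNA per cell cannot be told apart.

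The authors' deposited tables of comparisons held 43 or 44 TRIM members each. Shares of all genes passing in these tables are not given here, so the counts below are not read against them. The authors' false discovery rate was under 0.05 for 23 members with oxLDL in CD36 KO and for 20 in WT, of which 17 and 20 were called here in the same direction. For CD36 KO against WT the authors' deposited table had 19 in control medium (13 higher and 6 lower) and 7 under oxLDL (4 higher and 3 lower), of which 7 and 7 were called here in the same direction, and none was called in the opposite one. For Trim30b the authors' deposited table gives log2 fold changes of 2.30 with oxLDL in CD36 KO, 4.12 in WT and -1.89 for CD36 KO against WT under oxLDL. For Trim30d under oxLDL the authors' deposited table gives -0.95 for CD36 KO against WT, with a false discovery rate of 0.095. Trim5, Trim7, Trim8, Trim14, Trim17, Trim34a and Trim41, also called here in that contrast, did not pass there either. Their false discovery rates ran from 0.0664 (Trim7) to 0.452 (Trim41). With oxLDL in WT, Trim8, Trim26, Trim27, Trim29 and Trim68 were called here and did not pass there, at 0.114 (Trim68) to 0.372 (Trim8).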

How the data were processed

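Gene counts per library were deposited as whole numbers, without normalization, beside the RPKM values of the authors. The gene length is also given there. The authors' deposited tables of comparisons hold log2 fold changes and p-values with false discovery rates. The submitters' processing notes name mm10 and FastQC. For the aligner, the counter and its strand setting, the sources used here give nothing.

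The counts were tested. Low genes were dropped by filterByExpr (minimum count 10, minimum total count 15), and libraries were scaled with TMM factors over the 16281 genes kept. All 12 libraries entered one quasi-likelihood model with a mean for each group (edgeR 4.0.16, robust estimation, R 4.3.3), leaving 8 residual degrees of freedom. The 5 contrasts were oxLDL against control in each genotype, CD36 KO against WT in each medium, and the difference between the 2 responses. P-values were adjusted by the Benjamini-Hochberg method over all genes tested, and a gene was called at an adjusted p under 0.05. Standard errors are the log2 fold change divided by the root of its F statistic. Robust estimation was chosen after fits with and without it had been seen. It follows an earlier processing of these data, whose count of calls it matched. Scripts were tested on simulated data.

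The members, role lists and marker lists were chosen with earlier results of these data known. Genes named with per-library values are the 12 with the largest changes among those called in each oxLDL contrast, the 10 called with the smallest adjusted p in each genotype contrast, those called in the difference of responses and the 3 with the highest mean RPKM. Trim6 is also given with per-library values, as the cluster member that did not pass in either oxLDL contrast. Others are named as members of their list. Alternatives were DESeq2 1.42.0, limma-voom (limma 3.58.1), other scaling factors, no filter, removal of a trend with gene length, a replicate block, only the groups of a contrast, and each library left out. Positions and shared 50-base stretches come from GENCODE M21 (GRCm38, the assembly of mm10), and promoter windows from RefSeq.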

Additional observations from a re-analysis of the deposited data

Results flagged for a closer look

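The response of Trim30b to oxLDL differed between the genotypes in the test of that difference. The response in CD36 KO minus that in WT was -1.87 on the log2 scale (edgeR quasi-likelihood test, adjusted p = 0.00212). All 3 CD36 KO oxLDL libraries lay below all 3 WT oxLDL libraries, and the control libraries of the genotypes overlapped.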

How the results depend on the processing

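The counts of called members depended most on which libraries shared the estimate of spread. With only the groups of each contrast in the fit, 16 members were called with oxLDL in WT, 21 for CD36 KO against WT in control medium and 5 under oxLDL, against 26, 8 and 15. This fit could not be run for the difference of responses. For the alternative fits in this section, shares of all genes called are not given here. Leaving out 1 library gave 12 to 27 calls with oxLDL in CD36 KO, 21 to 31 in WT, 4 to 19 for CD36 KO against WT in control medium, 7 to 28 under oxLDL, and 1 to 5 for the difference of responses. The highest count each time came without WT oxLDL replicate 1. The added calls for the difference were then Trim35, Trim8, Trim56 and Trim14, all lower in CD36 KO. Upper-quartile factors moved the median log2 fold change of all genes by -0.12 with oxLDL in WT and by 0.12 for CD36 KO against WT under oxLDL, and the members' calls with oxLDL came to 13 higher and 7 lower in CD36 KO, 15 and 10 in WT, and 7 and 8 for CD36 KO against WT under oxLDL. RLE factors gave 13 higher and 2 lower with oxLDL in CD36 KO. Removing the trend with gene length moved that median by 0.11 with oxLDL in CD36 KO, and in WT it put Trim2 at -0.68 and Trim26 at 0.82, both still called. The replicate block gave 16 calls with oxLDL in CD36 KO and 25 in WT, 7 and 14 for CD36 KO against WT in control medium and under oxLDL, and 1 for the difference of responses. Deviations of same-numbered libraries from their group means correlated at -0.40 to 0.36, over 0.1 in 2 of 18 pairs. With 3 libraries a group, and WT oxLDL replicate 1 far from its own, this does not settle whether replicate numbers pair the libraries. Of 945 alternative values for 43 named log2 fold changes, 909 kept direction and call, 36 lost the call (27 of them with 1 library left out) and 0 reversed. With the replicate block the calls of Trim59 in control medium (adjusted p = 0.0564), Trim30d for CD36 KO against WT under oxLDL (0.0682), and Trim25 in CD36 KO (0.0659) and Trim27 in WT (0.072) with oxLDL were lost. With only the groups of each contrast, 10 of the 15 calls under oxLDL were lost. Trim46 and Trim7 had under 3 CPM in every library, and what depth adds to their spread was not tested.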
